A study of Homo sapiens with 18 samples.

Results

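The dual-specificity phosphatases DUSP1, DUSP2, DUSP4, DUSP5, DUSP6, DUSP7, DUSP8, DUSP10, DUSP14 and DUSP16, 10 of the 19901 genes in the count table, were followed across 3 head-and-neck squamous cell carcinoma lines with and without hepatocyte growth factor (HGF), the ligand of the receptor tyrosine kinase Met. The 10 genes were taken by name, but the set was chosen with earlier results of these data known. All 10 were among the 15475 genes with enough reads to be tested. Detroit 562 was derived from a metastasis of a pharyngeal tumor, FaDu from a primary hypopharyngeal tumor and SCC-9 from a primary tumor of the tongue. Each line was left untreated or stimulated with HGF at 50 ng/mL, with 3 mRNA libraries per line and treatment and 18 in all. The sample records and the methods of the study give 16 h of stimulation, whereas the series record gives 48 h. Detroit 562 and FaDu cells were kept in one medium and SCC-9 cells in another that held hydrocortisone, so cell line and medium cannot be told apart in any comparison between SCC-9 and the other lines. Each line stands for a single tumor. The p-values rest on the spread between the 3 libraries within groups, estimated jointly over all groups in a fit.

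Mitogen-activated protein kinases (MAPKs) are switched on by phosphorylation of a threonine and a neighboring tyrosine, and dual-specificity MAPK phosphatases remove both phosphates. DUSP1, DUSP2, DUSP4 and DUSP5 act in the nucleus and are encoded by genes that are themselves induced by mitogens and stress, DUSP6 and DUSP7 act on ERK in the cytoplasm, and DUSP8, DUSP10 and DUSP16 prefer the stress kinases JNK and p38. DUSP14 is a small atypical member without the kinase-binding domain of the others. Met signals through Ras to ERK, and several of these phosphatases are textbook components of the negative feedback on that route.

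The libraries held between 35304770 and 44003970 reads counted on genes, with a median of 40138919. Values are given as counts per 1000000 reads (CPM) after scaling of the libraries, and differences as log2 fold changes. A gene was called different between groups where the adjusted p was below 0.1 and the log2 fold change was at least 0.4 in either direction, the limits used in the study. The squamous markers KRT5, KRT14, KRT6A, TP63, CDH1 and EPCAM summed to between 1891 and 8836 CPM in every library, although KRT14 reached only 0.852 to 1.43 CPM in Detroit 562. The leukocyte marker PTPRC stayed at or below 0.0808 CPM in every library, and the 3 leukocyte markers together reached 9.98 CPM, nearly all of it CD14 in FaDu and SCC-9. MET, the HGF receptor, ranged from 769 to 837 CPM in untreated Detroit 562, from 139 to 161 CPM in FaDu and from 277 to 309 CPM in SCC-9, and HGF itself had 0 to 3 reads per library.

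The sequence before the transcription start was taken from RefSeq (GRCh38.p14) for 8 of the 10 genes, all but DUSP4 and DUSP5. Shown are the 250 bases before the start for the member with the largest log2 fold change in Detroit 562, FaDu and the mean of the lines, though not in SCC-9 (DUSP6), its relative DUSP7, the member that fell (DUSP10, the upstream one of its 2 RefSeq starts), and DUSP1 and DUSP8, which hold a cyclic AMP response element. Capitals mark the element TGACGTCA and the ETS core GGAA, which reads TTCC when it is on the other strand.
DUSP6, chr12:89352502-89352751, minus strand: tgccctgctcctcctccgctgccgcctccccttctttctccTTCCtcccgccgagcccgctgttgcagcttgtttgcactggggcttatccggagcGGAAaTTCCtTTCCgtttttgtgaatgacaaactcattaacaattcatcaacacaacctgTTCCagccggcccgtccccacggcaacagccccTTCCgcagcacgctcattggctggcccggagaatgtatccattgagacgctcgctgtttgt
DUSP7, chr3:52056572-52056821, minus strand: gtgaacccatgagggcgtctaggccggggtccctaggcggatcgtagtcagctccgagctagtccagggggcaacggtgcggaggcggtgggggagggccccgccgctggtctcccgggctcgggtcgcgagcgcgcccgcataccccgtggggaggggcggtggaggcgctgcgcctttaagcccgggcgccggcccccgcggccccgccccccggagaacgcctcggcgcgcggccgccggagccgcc
DUSP10, chr1:221742090-221742339, minus strand: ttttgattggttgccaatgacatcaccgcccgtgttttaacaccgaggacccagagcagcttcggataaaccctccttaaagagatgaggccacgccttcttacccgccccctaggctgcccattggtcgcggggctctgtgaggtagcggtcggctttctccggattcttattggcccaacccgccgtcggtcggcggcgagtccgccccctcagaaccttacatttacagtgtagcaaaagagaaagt
DUSP1, chr5:172771196-172771445, minus strand: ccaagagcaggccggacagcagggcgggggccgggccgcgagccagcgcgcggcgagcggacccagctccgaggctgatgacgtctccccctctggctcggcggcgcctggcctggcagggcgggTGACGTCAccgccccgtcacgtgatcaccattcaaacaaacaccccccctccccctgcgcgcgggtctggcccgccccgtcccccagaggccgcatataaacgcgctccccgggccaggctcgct
DUSP8, chr11:1572272-1572521, minus strand: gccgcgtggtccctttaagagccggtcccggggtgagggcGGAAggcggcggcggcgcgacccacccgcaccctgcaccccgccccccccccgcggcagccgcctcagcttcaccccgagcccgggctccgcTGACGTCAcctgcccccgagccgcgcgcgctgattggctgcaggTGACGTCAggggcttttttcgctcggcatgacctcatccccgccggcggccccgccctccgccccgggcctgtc

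These stretches overlapped no exon of GENCODE 44. The longer gene models of the count table reach into those of DUSP6, DUSP10 and DUSP14. The DUSP1 stretch held 1 copy of TGACGTCA, 125 bases before the start, and the DUSP8 stretch held 2, at 118 and 74 bases before it, whereas 1.65% of all 35116 RefSeq stretches of this kind hold at least 1 copy on either strand. GGAA occurred 6 times before DUSP6, 4 times before DUSP2, 3 times before DUSP16, and not at all before DUSP1, DUSP7, DUSP14 or the upstream start of DUSP10. It was found in 92.7% of all stretches, with a median of 3 copies. The longer ETS form CCGGAA (14.5% of all stretches, and containing GGAA), the AP-1 site TGANTCA (6.57%) and the CArG box (1.2%) were searched on both strands and occurred before none of the 8 genes. These matches describe letters only.

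Coordinates of the genes are those of the count table, on GRCh38. DUSP1 lies on the minus strand of chromosome 5 at 172768090 to 172771195, DUSP2 on the minus strand of chromosome 2 at 96143166 to 96145440, and DUSP4 on the minus strand of chromosome 8 at 29333064 to 29350668. DUSP5 lies on the plus strand of chromosome 10 at 110497838 to 110511544. DUSP6 and DUSP16 are both on the minus strand of chromosome 12, at 89347232 to 89353271 and at 12474210 to 12562383. DUSP7 lies on the minus strand of chromosome 3 at 52048919 to 52056550, DUSP8 on the minus strand of chromosome 11 at 1554044 to 1571920, DUSP10 on the minus strand of chromosome 1 at 221701424 to 221742176, and DUSP14 on the plus strand of chromosome 17 at 37489831 to 37513501. Reads were counted over the whole gene, introns included and by strand, so a long gene such as DUSP16, with 88.2 kb and 7.13 kb of exons, can also collect unspliced RNA. None of the 10 genes overlapped another gene on its own strand, in the count table or in GENCODE 44.

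Stimulation with HGF raised 6 of the 10 phosphatase mRNAs and lowered 1 in Detroit 562. DUSP6, DUSP4, DUSP7, DUSP5, DUSP2 and DUSP14 were higher, and DUSP10 was lower. Of all genes tested in this line, 6.16% were called higher and 11.7% lower. The median log2 fold change was 0.56 over the 10 genes and -0.01 over all genes. In FaDu, DUSP6 was the only member called (0.0258% of all genes were called higher). In SCC-9 no member was called by DESeq2 or by edgeR in the fit of all 18 libraries without replicate numbers. That edgeR fit called 0% of all genes. At an unadjusted p below 0.05 edgeR gave 3 members and 641 genes in SCC-9, and DESeq2 called 19 genes there. The plot of log2 fold changes by line shows these differences with their standard errors.

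**Figure D1:**
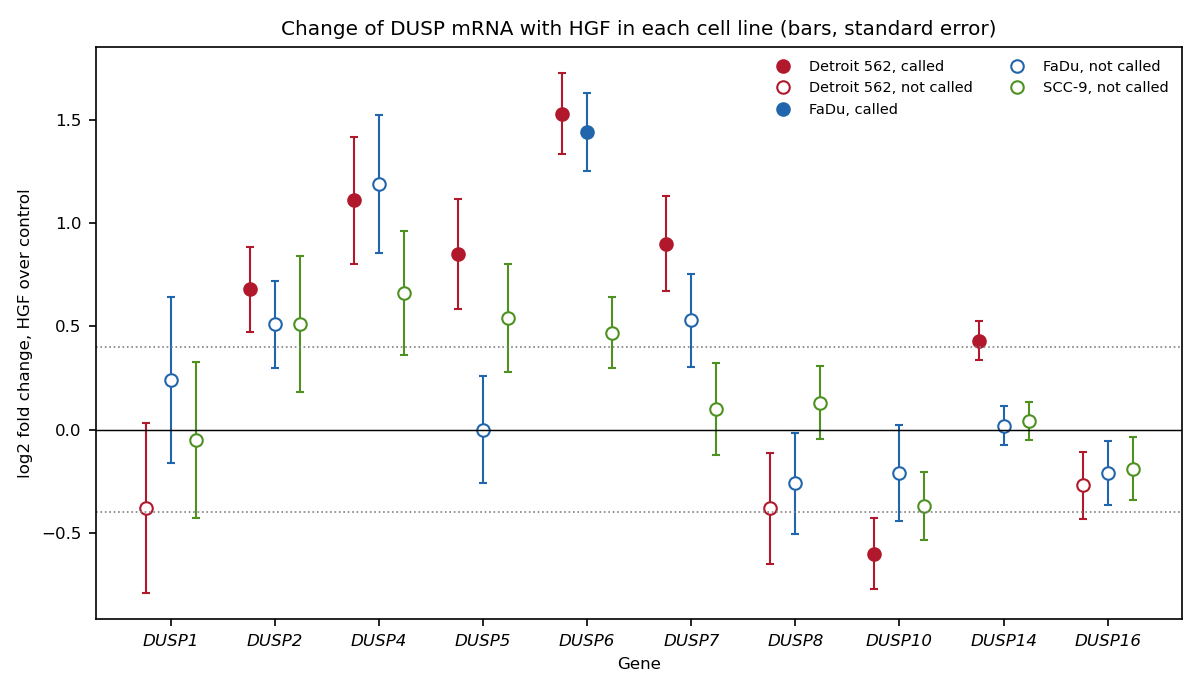
Log2 fold change of each phosphatase mRNA with HGF over control (y axis) for the 10 genes (x axis) in Detroit 562 (red), FaDu (blue) and SCC-9 (green). Points are edgeR estimates from 3 against 3 libraries, bars are standard errors, filled points were called, and dotted lines mark 0.4 and -0.4. DUSP6 stands at 1.53, 1.44 and 0.47 in the 3 lines, and DUSP10 and DUSP16 lie below 0 in all of them.

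The libraries carry replicate numbers, and within each line the untreated and HGF libraries of the same number deviated together. With the number as a block in the fit, the calls in Detroit 562 were the same 7 (7.13% of all genes were called higher and 14.4% lower). In FaDu the count rose from 1 to 4, with DUSP4, DUSP7 and DUSP2 joining DUSP6 (2.00% of all genes were called higher in this fit). In SCC-9 it rose from 0 to 3, namely DUSP4, DUSP5 and DUSP6 (0.562% of all genes were called higher). Without the replicate 1 libraries of Detroit 562 and FaDu, which stood apart in other genes as described for DUSP1, 4 members were called in Detroit 562 (DUSP6, DUSP7, DUSP10 and DUSP14, beside 9.55% of all genes) and 0 in FaDu and SCC-9 (0% of all genes in both). This comparison was chosen after seeing the data.

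DUSP6, the cytoplasmic ERK phosphatase, rose in Detroit 562 from 5.99, 5.43 and 5.65 CPM in the untreated libraries to 17.7, 13.1 and 18.5 CPM with HGF. Every HGF library lay far above every untreated one, and the untreated libraries hardly varied. This was a log2 fold change of 1.53 (SE 0.196, n = 3 per group, edgeR adjusted p = 0.000247). In FaDu the untreated libraries held 7.62, 9.12 and 11.1 CPM and the HGF libraries 22.7, 18.6 and 34.4 CPM. Again no library overlapped, and replicate 3 was the highest of both groups. In FaDu the log2 fold change was 1.44 (SE 0.187, edgeR adjusted p = 0.0115). By p-value DUSP6 ranked at position 1 of 15475 genes in FaDu and at position 40 in Detroit 562. The FaDu call was lost when untreated replicate 1 was left out (log2 fold change 1.32, adjusted p = 0.16) and without both replicate 1 libraries (1.39, adjusted p = 0.616). Fitting only this line's 6 libraries also lost the call, at a similar size of change (1.45, SE 0.238, edgeR adjusted p = 0.689). The call was kept with the replicate block.

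In SCC-9, DUSP6 started from a level that the other lines did not reach even with HGF. The untreated SCC-9 libraries held 59.7, 57.4 and 50.9 CPM, against at most 34.4 CPM in any HGF library of the other lines. With HGF they held 80.5, 74.6 and 78.2 CPM, all above the untreated ones. A log2 fold change of 0.47 (SE 0.174) was not called by edgeR (adjusted p = 1). With the replicate block it was called (0.48, SE 0.0866, adjusted p = 0.00766). DUSP6 was higher with HGF in 9 of 9 pairs of same-numbered libraries over the 3 lines.

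DUSP7, which also acts on cytoplasmic ERK, rose in Detroit 562 from 31.2, 37.1 and 60.4 CPM to 72.2, 63.6 and 105 CPM. All HGF libraries lay above all untreated ones, but replicate 3 was high in both groups, and untreated replicate 3 nearly reached HGF replicate 2. DUSP7 rose by a log2 fold change of 0.90 (SE 0.229, edgeR adjusted p = 0.0104). In FaDu the values were 93.2, 104 and 147 CPM without and 158, 137 and 202 CPM with HGF, so that the groups overlapped although every pair rose. This difference of 0.53 on the log2 scale (SE 0.225) was not called by edgeR (adjusted p = 0.594) and was called with the replicate block (0.54, SE 0.0768, adjusted p = 0.000533). In SCC-9 the untreated libraries held 123, 131 and 120 CPM and the HGF libraries 137, 135 and 130 CPM, a log2 fold change of 0.10 (SE 0.224) that was called in neither fit. DUSP7 was higher with HGF in 9 of 9 pairs, by a log2 ratio of 0.04 to 0.16 in SCC-9 and of 0.78 to 1.21 in Detroit 562.

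**Figure D2:**
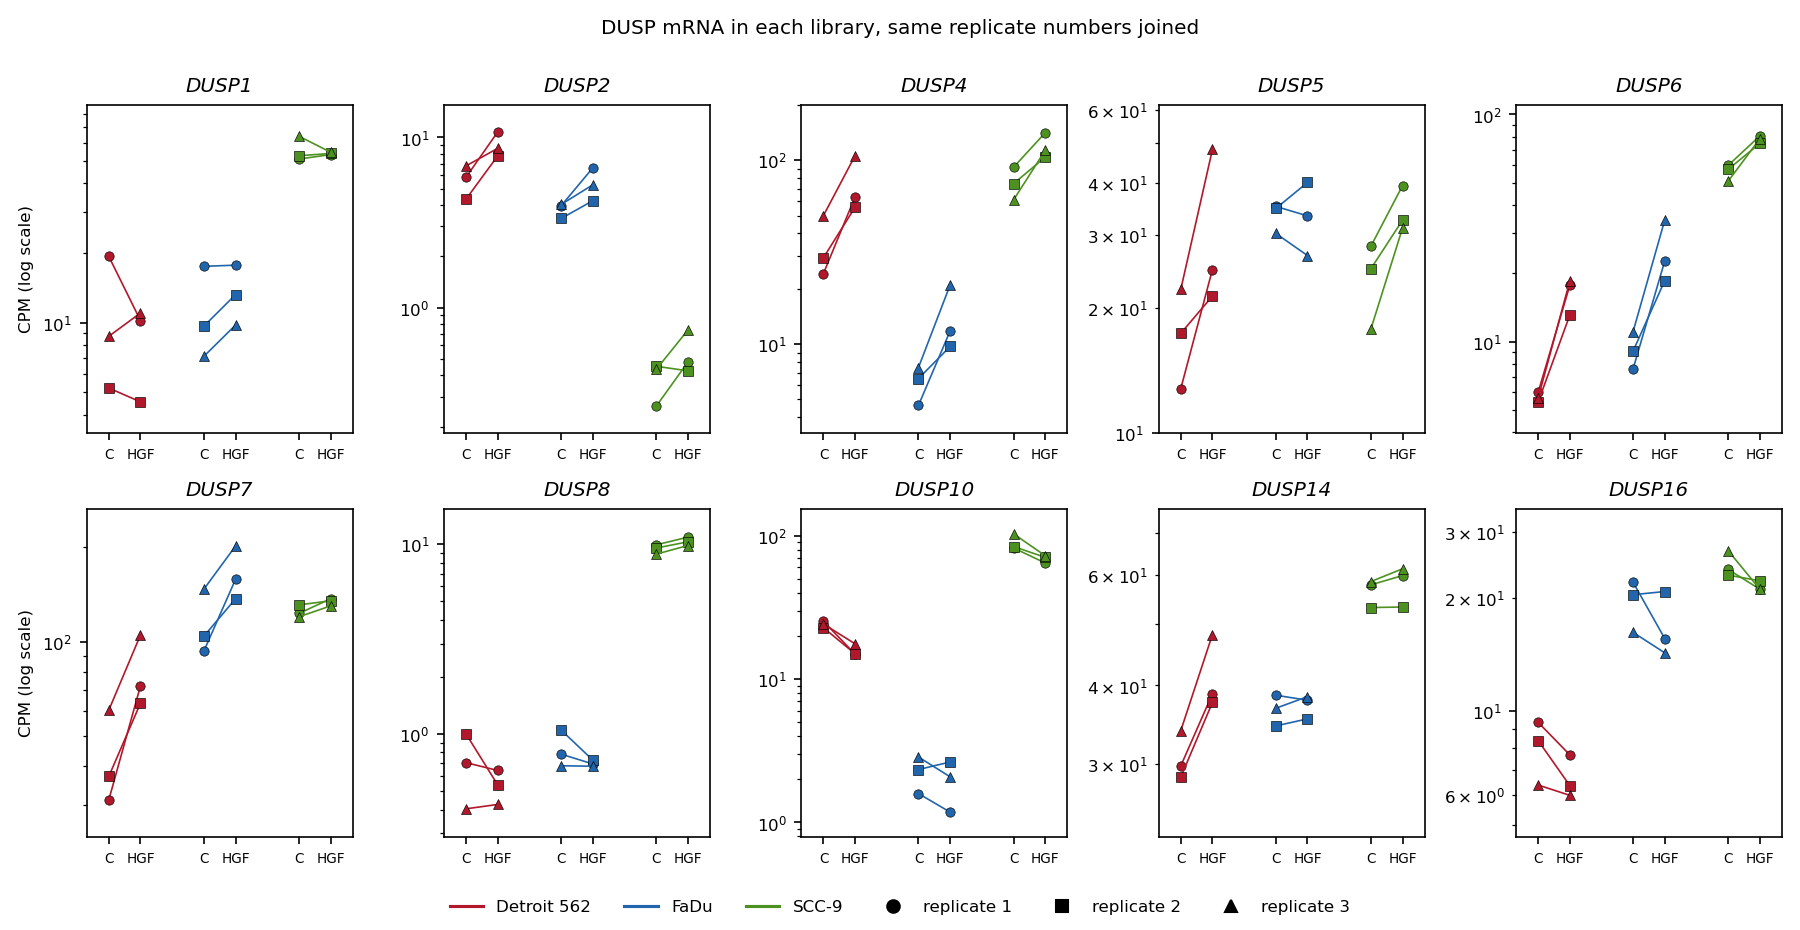
CPM of the 10 phosphatase mRNAs (y axes, log scale) in untreated (C) and HGF libraries of Detroit 562 (red), FaDu (blue) and SCC-9 (green). Each point is a library, its shape is the replicate number, and lines join libraries of the same number. DUSP4, DUSP6 and DUSP7 rise in 9 of 9 pairs, and DUSP10 and DUSP16 rise in 1 of 9.

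DUSP4 is a nuclear phosphatase of ERK, JNK and p38. In Detroit 562 it rose from 24.2, 29.5 and 50 CPM to 63.3, 55.6 and 106 CPM, with no overlap and with replicate 3 highest in both groups. Its log2 fold change was 1.11 (SE 0.306, edgeR adjusted p = 0.0155). It was no longer called without both replicate 1 libraries (1.02, adjusted p = 0.108). In FaDu the level was several times lower, at 4.65, 6.5 and 7.46 CPM without and 11.8, 9.71 and 21 CPM with HGF. The groups did not overlap, but the log2 fold change of 1.19 (SE 0.335) had an adjusted p of 0.448 with edgeR, and was called only with the replicate block (1.17, SE 0.149, adjusted p = 0.000225). In SCC-9 DUSP4 held 91.5, 74.5 and 60.8 CPM without and 141, 104 and 113 CPM with HGF, again without overlap. Its log2 fold change in SCC-9 was 0.66 (SE 0.3, edgeR adjusted p = 1), or 0.67 (SE 0.108, adjusted p = 0.00399) with the block. DUSP4 was higher with HGF in 9 of 9 pairs.

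DUSP5, a nuclear phosphatase selective for ERK, held 12.8, 17.4 and 22.2 CPM in untreated Detroit 562 and 24.8, 21.4 and 48.3 CPM with HGF. HGF replicate 3 stood far above the rest and HGF replicate 2 lay below untreated replicate 3. The log2 fold change was 0.85 (SE 0.265, edgeR adjusted p = 0.0285), and it was not called without HGF replicate 3 (0.40, adjusted p = 0.221), without untreated replicate 1 (0.66, adjusted p = 0.148) or without both replicate 1 libraries (0.81, adjusted p = 0.14). In FaDu DUSP5 held 35.2, 34.8 and 30.3 CPM without and 33.4, 40.2 and 26.8 CPM with HGF, a log2 fold change of 0.00 (SE 0.258). The HGF libraries of FaDu lay on both sides of the untreated ones. In SCC-9 it held 28.2, 24.9 and 17.8 CPM without and 39.5, 32.6 and 31.2 CPM with HGF, and the groups did not overlap. The log2 fold change was 0.54 (SE 0.261, edgeR adjusted p = 1) and was called with the block (0.55, SE 0.12, adjusted p = 0.0201).

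DUSP2, the nuclear phosphatase best known from activated lymphocytes, was a low transcript in Detroit 562 and FaDu and close to absent in SCC-9. In Detroit 562 it rose from 5.85, 4.35 and 6.81 CPM to 10.8, 7.81 and 8.64 CPM, without overlap, by a log2 fold change of 0.68 (SE 0.206, edgeR adjusted p = 0.0246). The call was lost without untreated replicate 2 (0.52, adjusted p = 0.123) and without both replicate 1 libraries (0.56, adjusted p = 0.185). In FaDu it held 3.97, 3.34 and 4.04 CPM without and 6.63, 4.25 and 5.27 CPM with HGF, also without overlap. A log2 fold change of 0.51 (SE 0.211, edgeR adjusted p = 0.583) was called only with the block (0.50, SE 0.133, adjusted p = 0.026). In SCC-9 only 11, 19 and 17 reads were counted without and 20, 18 and 30 reads with HGF. The log2 fold change of 0.51 (SE 0.328) was not called.

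DUSP1, the nuclear phosphatase that is induced within minutes by serum and stress, showed no called change with HGF in any line. In Detroit 562 it held 19.3, 5.21 and 8.72 CPM without and 10.2, 4.54 and 11 CPM with HGF, with the untreated replicate 1 library the highest. The log2 fold change of -0.38 (SE 0.411, edgeR adjusted p = 0.53) turned to 0.30 without that library and to 0.15 without both replicate 1 libraries. In FaDu it held 17.5, 9.64 and 7.14 CPM without and 17.7, 13.2 and 9.75 CPM with HGF, replicate 1 again being the highest of each group (log2 fold change 0.24, SE 0.4, adjusted p = 0.886). In SCC-9 it held 50.9, 52.6 and 63.9 CPM without and 53.2, 53.8 and 54.5 CPM with HGF (log2 fold change -0.05, SE 0.377, adjusted p = 1).

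The replicate 1 libraries of Detroit 562 and FaDu also stood apart in the immediate early genes, a list of 14 genes such as FOS, EGR1 and JUN that respond within minutes to handling, serum or growth factors. Their summed level in the untreated libraries was 1350, 540 and 620 CPM in Detroit 562 and 1308, 749 and 650 CPM in FaDu, so that replicate 1 stood apart in both lines. FOS, named here after its values were seen, was at 262 CPM in untreated replicate 1 of Detroit 562 and at 9.34 and 31.4 CPM in the other untreated libraries. With HGF the sum was 1001, 463 and 546 CPM in Detroit 562 and 1332, 889 and 690 CPM in FaDu. In SCC-9 it lay between 1040 and 1394 CPM with no library apart. The DUSP1 level did not follow the sum everywhere, since HGF replicate 3 of Detroit 562 held 11 CPM of DUSP1 at a sum of 546 CPM, and SCC-9 held 50.9 to 63.9 CPM at sums similar to those of the replicate 1 libraries of the other lines. The part of this shift in the DUSP1 values was not tested. Of the 14 genes, MYC was called higher (log2 fold change 0.43, SE 0.0914, edgeR adjusted p = 0.00445) and JUND lower (-0.67, SE 0.245, adjusted p = 0.0566) in Detroit 562, beside 6.16% and 11.7% of all genes. None was called in FaDu or SCC-9. With the replicate block 1 was called higher and 6 lower in Detroit 562 (7.13% and 14.4% of all genes). In each of the other lines 0 were called higher and 1 lower, beside 557 of 15475 genes called lower in FaDu and 218 in SCC-9.

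**Figure D3:**
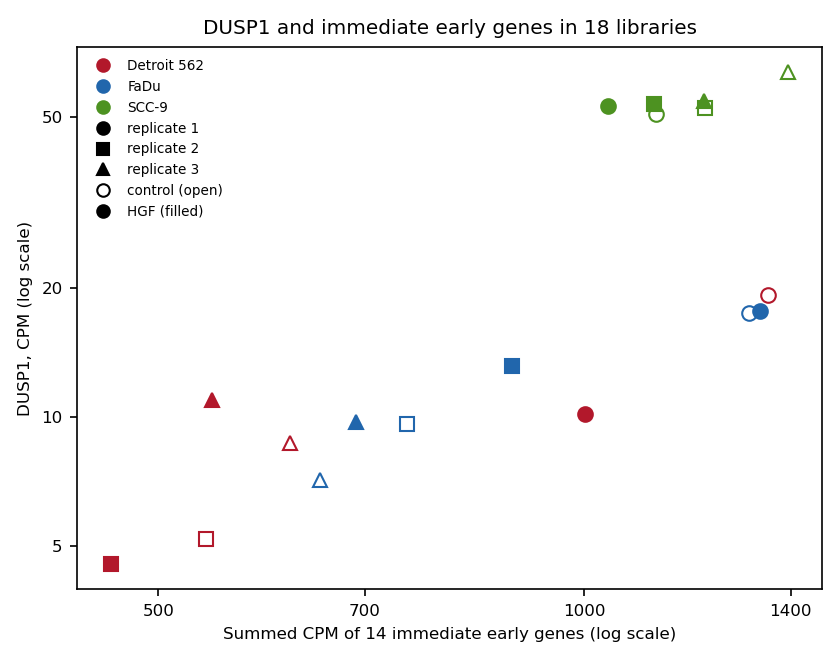
DUSP1 in CPM (y axis, log scale) against the summed CPM of 14 immediate early genes (x axis, log scale) in the 18 libraries. Color gives the line, shape the replicate number, and open points are untreated. The replicate 1 libraries of Detroit 562 and FaDu lie at 1001 to 1350 CPM of the sum, their other libraries at 463 to 889 CPM, and SCC-9 lies above 50 CPM of DUSP1 throughout.

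Among the phosphatases of JNK and p38, DUSP10 was lower with HGF in Detroit 562. It held 25.3, 22.8 and 24.2 CPM without and 14.9, 15 and 17.6 CPM with HGF, without overlap. Its log2 fold change was -0.60 (SE 0.172, edgeR adjusted p = 0.0185). In SCC-9 all HGF libraries (64.5, 70.6 and 72.5 CPM) lay below all untreated ones (82.1, 84 and 103 CPM), with a log2 fold change of -0.37 (SE 0.164, edgeR adjusted p = 1). With the block its adjusted p was 0.00907, but the change stayed under the limit of 0.4. In FaDu, where DUSP10 is low, it held 1.59, 2.34 and 2.86 CPM without and 1.18, 2.64 and 2.08 CPM with HGF (log2 fold change -0.21, SE 0.233, adjusted p = 0.814), and the groups overlapped.

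DUSP16, another phosphatase of JNK and p38, was not called in any line. It held 9.36, 8.37 and 6.38 CPM without and 7.67, 6.36 and 5.99 CPM with HGF in Detroit 562, 22, 20.4 and 16.2 against 15.6, 20.8 and 14.3 CPM in FaDu, and 23.8, 23 and 26.7 against 21.1, 22.2 and 21.1 CPM in SCC-9. The groups overlapped in Detroit 562 and FaDu and did not in SCC-9. The log2 fold changes were -0.27 (SE 0.164), -0.21 (SE 0.153) and -0.19 (SE 0.152), and 8 of 9 pairs were lower with HGF. In Detroit 562 it was called when untreated replicate 3 was left out (-0.41, adjusted p = 0.0727).

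DUSP8 was near the limit of detection outside SCC-9. Detroit 562 held 30, 37 and 15 reads without and 26, 19 and 14 reads with HGF, and FaDu 33, 42 and 29 against 30, 29 and 28 reads. In SCC-9 it held 9.93, 9.55 and 8.87 CPM without and 10.9, 10.3 and 9.85 CPM with HGF. None of its log2 fold changes was called, which were -0.38 (SE 0.269) for Detroit 562, -0.26 (SE 0.246) for FaDu and 0.13 (SE 0.177) for SCC-9. Without untreated replicate 3 of Detroit 562, the library with 15 reads, the fall in that line was called (-0.65, adjusted p = 0.0461).

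DUSP14, the atypical member, rose in Detroit 562 from 29.8, 28.6 and 33.9 CPM to 38.8, 37.6 and 48.2 CPM, without overlap. Its log2 fold change of 0.43 was small but had the smallest error of all 10 genes (SE 0.0938, edgeR adjusted p = 0.00474). It fell under the limit of 0.4 without untreated replicate 2 (0.38) or HGF replicate 3 (0.31). In FaDu it held 38.6, 34.5 and 36.8 CPM without and 37.9, 35.4 and 38.4 CPM with HGF, and in SCC-9 57.8, 53.2 and 58.5 against 59.8, 53.3 and 61.3 CPM. The log2 fold changes there were 0.02 (SE 0.0932) and 0.04 (SE 0.0922).

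Averaged over the 3 lines, 5 members were called higher with HGF and none lower, against 2.02% and 4.88% of all genes. DUSP6 had a mean log2 fold change of 1.15 (SE 0.107, edgeR adjusted p = 5.77e-05) and ranked at position 1 of 15475 genes by p-value. DUSP4 followed with 0.99 (SE 0.181, adjusted p = 0.00377), DUSP2 with 0.57 (SE 0.147, adjusted p = 0.016), DUSP7 with 0.51 (SE 0.13, adjusted p = 0.0152) and DUSP5 with 0.46 (SE 0.151, adjusted p = 0.041). DUSP10 lay just under the limit of size at -0.40 (SE 0.111, adjusted p = 0.0223) and was called lower for 8 of the 18 libraries that can be left out, with values down to -0.48 (adjusted p = 0.00605), and DUSP14 (0.17) and DUSP16 (-0.22) were well under it. Without the replicate 1 libraries of Detroit 562 and FaDu 3 were called (3.58% of all genes), since DUSP2 (0.48, adjusted p = 0.102) and DUSP5 (0.46, adjusted p = 0.131) no longer passed. DUSP5 was also lost without HGF replicate 3 of Detroit 562 (0.32, adjusted p = 0.0759).

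All HGF libraries lay above all untreated ones for 5 members of Detroit 562, 3 of FaDu and 3 of SCC-9, against 18.1%, 4.05% and 8.30% of all genes. They lay below for 1, 0 and 2 members, against 20.1%, 5.36% and 9.12%. With 3 against 3 libraries a two-sided exact permutation test of a single gene cannot go below p = 0.1, which these members reached. In bulk RNA, a lower number of cells with a transcript and less of it per cell cannot be told apart.

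The response to HGF was then compared between the lines. The DUSP6 response was larger in Detroit 562 than in SCC-9 by 1.06 on the log2 scale (SE 0.261, edgeR adjusted p = 0.0997), the only member called in that comparison, in which 0.924% of all genes were called. This call sat at the threshold and was lost for 10 of the 12 libraries that can be left out, with values between 0.96 and 1.19. It was also lost without both replicate 1 libraries (1.04, adjusted p = 0.408). With the replicate block it was 1.05 (SE 0.145, adjusted p = 0.00031), and DUSP7 (0.82, SE 0.112), DUSP14 (0.39, SE 0.0661) and DUSP4 (0.46, SE 0.157) were called as well, so that 4 of 10 members were called beside 26.9% of all genes.

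Between Detroit 562 and FaDu no member was called by DESeq2 or by edgeR without the block (0.239% of all genes). At an unadjusted p below 0.05 this edgeR fit gave 2 members, beside 1788 of the 15475 genes. The DUSP6 responses differed by 0.09 (SE 0.267) and the DUSP4 responses by -0.08 (SE 0.448). With the block, DUSP5 (0.81, SE 0.173, adjusted p = 0.00799), DUSP14 (0.40, SE 0.0673, adjusted p = 0.00214) and DUSP7 (0.39, SE 0.112, adjusted p = 0.0364) rose more in Detroit 562, beside 19.1% of all genes. Between FaDu and SCC-9 no member and 0% of all genes were called by edgeR without the block. At an unadjusted p below 0.05 it gave 1 member and 337 genes, and DESeq2 called no member and 5 genes. With the block DUSP6 (0.95, SE 0.135, adjusted p = 0.00576) and DUSP7 (0.43, SE 0.108, adjusted p = 0.0979) rose more in FaDu, beside 1.32% of all genes.

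Untreated SCC-9 held more phosphatase mRNA in total than either other line, with HGF or without. Only the SCC-9 medium was described with hydrocortisone, so line and medium cannot be told apart in any comparison with SCC-9. The 10 genes summed to 511 to 527 CPM in untreated SCC-9, to 160 to 219 CPM in Detroit 562 and to 225 to 264 CPM in FaDu. With HGF the sums were 557 to 609, 226 to 369 and 282 to 355 CPM. Between untreated Detroit 562 and SCC-9 9 of the 10 genes were called, 8 of them higher in SCC-9 (65.4% of all genes were called and 33.9% were higher in SCC-9). Between FaDu and SCC-9 8 were called, 6 of them higher in SCC-9 (64.2% and 33.5%), and between Detroit 562 and FaDu 7 were called (61.0%). The shares called in either direction are so large that the number of members called in either direction is close to the background. This does not hold for direction, since 8 and 6 of the 10 members were higher in SCC-9, beside 33.9% and 33.5% of all genes.

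The size of the differences varied by member. Those that involve SCC-9, DUSP1 among them, are differences of line and hydrocortisone-containing medium together. DUSP10 was 39.6-fold higher in untreated SCC-9 than in FaDu (log2 difference -5.31, FaDu minus SCC-9, SE 0.21), 3.72-fold higher in SCC-9 than in Detroit 562, and 10.6-fold higher in Detroit 562 than in FaDu (3.41, SE 0.202). DUSP4 was 12.2-fold higher in SCC-9 than in FaDu (-3.61, SE 0.345), 2.19-fold higher in SCC-9 than in Detroit 562, and 5.56-fold higher in Detroit 562 than in FaDu (2.48, SE 0.336). DUSP8 was 13.4-fold and 11.2-fold higher in SCC-9 than in Detroit 562 and FaDu. DUSP6 was 9.83-fold higher in SCC-9 than in Detroit 562 (-3.30, SE 0.199) and 6.04-fold higher than in FaDu (-2.59, SE 0.19), beside a rise with HGF of 2.89-fold and 2.72-fold in those lines. It was 1.63-fold lower in Detroit 562 than in FaDu. DUSP1 was 5-fold higher in SCC-9 than in Detroit 562 (-2.32, SE 0.405) and 4.87-fold higher than in FaDu (-2.29, SE 0.403). Without untreated replicate 1 of Detroit 562 the first of these log2 differences was -3.00, and without that of FaDu the second was -2.74. DUSP2 went the other way, 14.7-fold higher in Detroit 562 (3.88, SE 0.271) and 9.83-fold higher in FaDu (3.30, SE 0.273) than in SCC-9.

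DUSP7 and DUSP16 were lower in Detroit 562 than in both other lines. DUSP7 was 2.68-fold lower in Detroit 562 than in FaDu (-1.42, SE 0.23) and 2.91-fold lower than in SCC-9 (-1.54, SE 0.231), and FaDu and SCC-9 differed by -0.12 (SE 0.224, edgeR adjusted p = 0.637). DUSP16 was 2.43-fold and 3.04-fold lower in Detroit 562, while FaDu and SCC-9 differed by -0.33 (SE 0.152), under the limit of size. The libraries of FaDu nevertheless all lay below those of SCC-9, and the difference was called without untreated replicate 1 of FaDu (-0.42, adjusted p = 0.0367) and without both replicate 1 libraries (-0.42, adjusted p = 0.0333). DUSP5 was the one member highest in FaDu, 1.91-fold above Detroit 562 (-0.94, SE 0.264) and 1.41-fold above SCC-9 (0.50, SE 0.261, edgeR adjusted p = 0.0937). The difference from SCC-9 was not called with the replicate block (0.50, adjusted p = 0.107), nor with untreated replicate 1 or 2 of FaDu or replicate 2 or 3 of SCC-9 left out. DUSP14 varied least, 1.84-fold between SCC-9 and Detroit 562, 1.54-fold between SCC-9 and FaDu, and 1.19-fold between FaDu and Detroit 562. DUSP2 was 1.5-fold higher in Detroit 562 than in FaDu (0.58, SE 0.211), a call that was lost without untreated replicate 3 of Detroit 562 (0.43, adjusted p = 0.1).

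**Figure D4:**
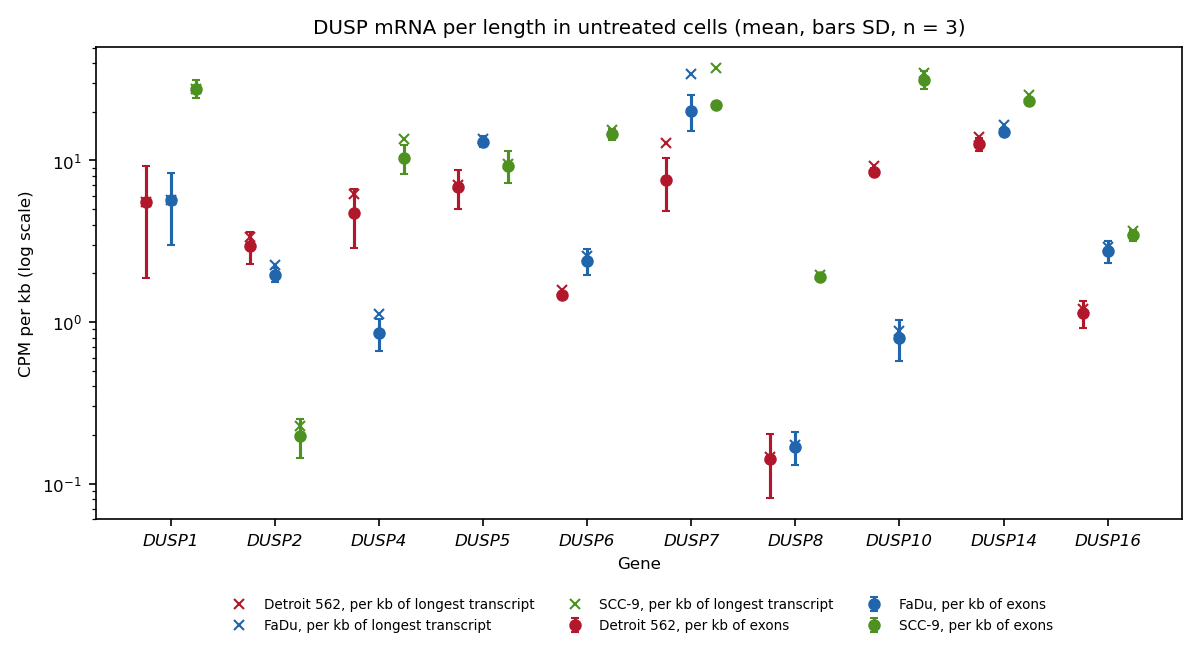
Level of each phosphatase mRNA in untreated cells per kb of transcript (y axis, CPM per kb, log scale) for the 10 genes (x axis) in Detroit 562 (red), FaDu (blue) and SCC-9 (green). Circles are means of 3 libraries per kb of all exons with the SD as bars, and crosses divide by the longest transcript. DUSP2 is lowest in SCC-9 at 0.198 CPM per kb, and DUSP10 spans 0.8 CPM per kb in FaDu to 31.7 CPM per kb in SCC-9.

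Levels of different genes were compared per kb of exons. Reads in introns were counted too, so genes with long introns can stand too high, such as DUSP10 with 40.8 kb and 2.83 kb of exons. In untreated Detroit 562 DUSP14 was highest at 12.6 ± 1.14 CPM per kb (SD, n = 3), followed by DUSP10 (8.51 ± 0.434), DUSP7 (7.57 ± 2.72), DUSP5 (6.88 ± 1.85), DUSP1 (5.52 ± 3.66), DUSP4 (4.75 ± 1.87), DUSP2 (2.94 ± 0.644), DUSP6 (1.47 ± 0.0723), DUSP16 (1.13 ± 0.212) and DUSP8 (0.142 ± 0.0606). The neighbors from DUSP10 down to DUSP2 overlapped in their libraries. In untreated FaDu DUSP7 led at 20.2 ± 5.07 CPM per kb, ahead of DUSP14 (15 ± 0.844), DUSP5 (13.1 ± 1.07) and DUSP1 (5.69 ± 2.7), none of which overlapped the next. DUSP16, DUSP6 and DUSP2 followed between 1.96 and 2.74 CPM per kb, where DUSP6 overlapped both neighbors, and DUSP4 (0.854 ± 0.197), DUSP10 (0.8 ± 0.226) and DUSP8 (0.169 ± 0.039) were lowest. In untreated SCC-9 DUSP10 (31.7 ± 4.07 CPM per kb) and DUSP1 (27.8 ± 3.54) led and overlapped, DUSP14 (23.2 ± 1.19) and DUSP7 (22 ± 1.01) came next and overlapped, and DUSP6 stood at 14.5 ± 1.18, DUSP4 at 10.4 ± 2.12, DUSP5 at 9.3 ± 2.07, DUSP16 at 3.44 ± 0.271, DUSP8 at 1.91 ± 0.108 and DUSP2 at 0.198 ± 0.0538. Divided by the longest transcript instead, DUSP7 rose to 37.1 CPM per kb and position 1 in SCC-9 and to 34.2 CPM per kb in FaDu. In untreated Detroit 562 it rose to 12.8 CPM per kb and position 2, above DUSP10 (9.3). In HGF-treated Detroit 562 it held 23.8 CPM per kb and position 1 by this measure.

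In HGF-treated cells some positions in this order were different. In Detroit 562 DUSP4 went from position 6 to 4 at 10.3 ± 3.7 CPM per kb, DUSP6 from 8 to 7, level with DUSP1, at 4.26 ± 0.755, and DUSP10 from 2 to 5 at 5.61 ± 0.535, while DUSP7, DUSP5 and DUSP2 each moved up by 1 and DUSP1 went from 5 to 7. In FaDu DUSP6 went from position 6 to 5 at 6.53 ± 2.13 CPM per kb, DUSP2 from 7 to 6 and DUSP16 from 5 to 7. In SCC-9 DUSP1 and DUSP10 changed places at the top. Summed by role within the 10 genes, the cytoplasmic ERK phosphatases DUSP6 and DUSP7 went from 48.6 ± 15.4 to 96.6 ± 23.9 CPM in Detroit 562 (SD, n = 3), from 124 ± 30.4 to 191 ± 41.4 CPM in FaDu and from 181 ± 8.79 to 212 ± 5.13 CPM in SCC-9. The phosphatases of JNK and p38 (DUSP8, DUSP10 and DUSP16) went from 32.8 ± 2.25 to 23.1 ± 1.06 CPM in Detroit 562, from 22.6 ± 2.5 to 19.6 ± 3.99 CPM in FaDu and from 124 ± 12.9 to 101 ± 3.96 CPM in SCC-9. The FaDu libraries overlapped in both sums. DUSP9, outside the 10 genes and these sums, is named here after its values were seen. It went from 14.8 ± 4.25 to 10.4 ± 3.71 CPM in Detroit 562, from 3.27 ± 0.926 to 2.61 ± 0.537 CPM in FaDu and from 3.81 ± 0.354 to 3.84 ± 0.227 CPM in SCC-9.

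Of 15 other genes that ERK signaling is known to induce, 9 were called higher and 0 lower in Detroit 562 (6.16% and 11.7% of all genes), where their median change was 0.67 on the log2 scale and that of all genes -0.01. The lowest p-values belonged to the feedback inhibitors SPRED3 (1.94, SE 0.302, edgeR adjusted p = 0.000974), SPRY2 (1.00, SE 0.182, adjusted p = 0.00203) and SPRY4 (1.95, SE 0.413, adjusted p = 0.00433) and to FOSL1 (1.55, SE 0.337, adjusted p = 0.00475), a subunit of the transcription factor AP-1. In FaDu 1 of 15 was called, the survival gene IER3 (1.11, SE 0.178, adjusted p = 0.062), against 0.0258% of all genes called higher. With the block 9 were called higher there (2.00% of all genes), and the median was 0.61. In SCC-9 none was called without the block and 6 were called higher with it (0.562% of all genes), and the median was 0.35. Over the mean of the lines 9 of 15 were called higher and 0 lower (2.02% and 4.88% of all genes).

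Of 17 MAPKs and their activating kinases, 2 were called higher and 3 lower in Detroit 562 (6.16% and 11.7% of all genes), with a median of -0.01. MAPK8, which encodes JNK, rose by 0.64 (SE 0.112, edgeR adjusted p = 0.00177) and the ERK activator MAP2K1 by 0.49 (SE 0.0891, adjusted p = 0.00218), and MAPK10, a JNK gene best known from neurons, fell by 1.06 on the log2 scale (SE 0.16, adjusted p = 0.000814). The ERK gene MAPK3 and MAP2K6, named here after their values were seen, were lower too. In Detroit 562 MAPK3 went from 52.5 ± 5.43 to 38.8 ± 4.88 CPM and MAP2K6 from 15.2 ± 3.97 to 6.57 ± 3.03 CPM (SD, n = 3). None of the 17 was called in FaDu or SCC-9 without the block, and with it 1 was called lower in FaDu, the p38 activator MAP2K6 (-0.48, SE 0.148, edgeR adjusted p = 0.0522), and 0 in SCC-9. Of 14 further DUSP genes 9 had enough reads to be tested and none was called in any line without the block. With the block 2 were called lower in Detroit 562, beside 14.4% of all genes. Of 8 other phosphatases that act on MAPKs 6 were tested, and only PTPRR was called (-1.10, SE 0.363, edgeR adjusted p = 0.0358, Detroit 562, beside 11.7% of all genes called lower).

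Across the 18 libraries, each centered on the mean of its line, DUSP4 followed DUSP7 (Pearson r = 0.91 on log2 values) and DUSP6 (r = 0.90), and DUSP6 followed DUSP7 (r = 0.83). DUSP16 ran against DUSP4 and DUSP7 (r = -0.83 for both). These values describe libraries that share the treatment and the replicate number, and replicate 3 was high for DUSP4 and DUSP7 in both groups of Detroit 562 and FaDu. By the same measure, of all tested genes the most alike to DUSP6 were IL4R (0.95), SPHK1 (0.94) and S100A2 (0.94), to DUSP4 NAV3 (0.99), ANTXR2 (0.97) and SPRED2 (0.97), and to DUSP7 GJB5 and TTL (0.98 each). For DUSP5 they were LRRFIP1 (0.91), MCFD2 and STK40 (0.90 each), for DUSP2 LRWD1 (0.90), NEIL2 (0.89) and WIZ (0.88), for DUSP14 NUDT4 (0.97), TPM4 and CAP1 (0.96 each), and for DUSP10 STON2 (0.90), RP11-467J12.4 and MFSD14C (0.88 each).

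Markers moved with the treatment as well. The summed level of the 6 squamous markers was 2893 to 4159 CPM in untreated Detroit 562 and 1891 to 3024 CPM with HGF, 5039 to 7999 against 3146 to 6814 CPM in FaDu, and 7099 to 8836 against 7182 to 8499 CPM in SCC-9. Its members went both ways, since in Detroit 562 KRT5 held 2105 ± 557 CPM without and 1129 ± 472 CPM with HGF, whereas EPCAM held 426 ± 8.9 and 493 ± 17.2 CPM and KRT6A 640 ± 43.2 and 642 ± 135 CPM (SD, n = 3). Replicate 3 held the least in Detroit 562 and FaDu, the same libraries in which DUSP4 and DUSP7 were highest. Of the 5 fibroblast markers only the collagens were above trace amounts, with sums of 29.8 to 54.3 CPM in untreated and 15 to 27.6 CPM in HGF-treated Detroit 562, 3.99 to 6.77 against 3.39 to 4.73 CPM in FaDu and 76 to 97.4 against 59.3 to 79.6 CPM in SCC-9, and THY1 stayed at or below 0.0808 CPM. The endothelial markers PECAM1, VWF and CDH5 summed to at most 8.34 CPM in any library. The part of these shifts in the phosphatase values was not tested.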

How the data were processed

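RNA of 18 cultures was sequenced from a stranded poly(A) library. Per the labels and the methods of the study, the authors trimmed reads with Cutadapt, aligned them with STAR 2.5.2b to GRCh38.p12 and counted them by strand over whole GENCODE 28 genes with bedtools. The deposited table holds raw counts per gene, whole numbers and not normalized. Counting over introns adds unspliced RNA to long genes. No comparison columns of the authors were used.

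Counts were tested with edgeR 4.0.16 in R 4.3.3 (quasi-likelihood test, TMM scaling, filterByExpr, 1 fit of all 18 libraries with a mean per line and treatment). P-values were Benjamini-Hochberg adjusted over 15475 genes. Differences between responses were called on the adjusted p alone. Standard errors are the log2 fold change divided by the square root of F. The 10 genes, the lists and the tests were chosen with earlier results of these data known. All 10 genes were named, up to 4 of a list by lowest p, and the 3 genes most alike (Pearson r of log2(CPM + 0.5)) to each member called with HGF in a line, of which 1 gene is not reported here. The tests were tried on simulated counts with known changes.

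Alternatives were a replicate block, DESeq2 size factors, no filter, DESeq2 1.42.0 with its fold change prior, a fit of each line alone, and each library left out; leaving out the replicate 1 libraries of Detroit 562 and FaDu was chosen after seeing the data. Pairing was checked by correlating deviations from group means over genes. Same-numbered untreated and HGF libraries correlated at 0.161 to 0.563 in all 9 pairs, so the numbers were taken to pair the libraries within a line. Libraries of different numbers correlated at -0.227 to -0.136 on average per line. Centering on group means pushes these below 0 when the same-numbered ones lie above it, so they are no separate evidence of pairing. Gene lengths were unions of exons of GENCODE 44. With 35304770 to 44003970 reads per library, DUSP8 in Detroit 562 and FaDu and DUSP2 in SCC-9 held under 50 reads each, which limits the precision of their values.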

Additional observations from a re-analysis of the deposited data

Results flagged for a closer look

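The DUSP6 response to HGF was called different between lines by a test of the difference itself, at the edge of the threshold. It was larger in Detroit 562 than in SCC-9 by 1.06 on the log2 scale (SE 0.261, edgeR adjusted p = 0.0997), with responses of 1.53 in Detroit 562 and 0.47 in SCC-9 and a rise in 3 of 3 pairs in each line. Leaving out single libraries gave differences of 0.96 to 1.19 and edgeR adjusted p-values of 0.0586 to 0.261, and the call was lost for 10 of 12 libraries. It was also lost without the replicate 1 libraries of Detroit 562 and FaDu (1.04, edgeR adjusted p = 0.408).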

How the results depend on the processing

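Scaling with DESeq2 size factors and testing without a filter left all counts of members called within 1.5 times those reported. With the replicate block the counts were 4 in FaDu, 3 in SCC-9, and 3, 4 and 2 for the response differences Detroit 562 minus FaDu, Detroit 562 minus SCC-9 and FaDu minus SCC-9. A fit of a line's 6 libraries alone called 0 members in FaDu and 1 in SCC-9. Without the replicate 1 libraries of Detroit 562 and FaDu the counts were 4 in Detroit 562, 0 in FaDu, 3 for the mean of the lines and 0 for Detroit 562 minus SCC-9. Leaving out single libraries gave 5 to 9 members in Detroit 562, 0 to 1 in FaDu, 0 in SCC-9, 5 to 6 for the mean, 0 to 1 for Detroit 562 minus FaDu, 0 to 3 for Detroit 562 minus SCC-9 and 0 for FaDu minus SCC-9. The cause of these changes was not tested, and the fits with libraries left out also held fewer of them. Where a sign turned, the value was not called. Ranges over single libraries left out were -0.72 to 0.30 for DUSP1 in Detroit 562 (0.15 without the replicate 1 libraries), -0.01 to 0.69 for DUSP1, -0.15 to 0.15 for DUSP5 (-0.01 with the block), -0.48 to 0.06 for DUSP10 and -0.02 to 0.06 for DUSP14 in FaDu, and -0.11 to 0.06 for DUSP1 and 0.00 to 0.10 for DUSP14 in SCC-9. They were -0.41 to 0.31 for DUSP4 and -0.09 to 0.37 for DUSP6 in Detroit 562 minus FaDu, -0.71 to 0.41 for DUSP1 and -0.57 to 0.02 for DUSP8 between untreated Detroit 562 and FaDu, and -0.34 to 0.01 for DUSP7 between untreated FaDu and SCC-9 (0.01 without the replicate 1 libraries).

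Counts over all genes moved too. In FaDu 4 genes were called, 867 with the block, 66 with DESeq2, and 0 with that line alone or without the replicate 1 libraries. In SCC-9 0 were called, 305 with the block, 25 with that line alone and 19 with DESeq2. For Detroit 562 minus FaDu, 37 became 2956 with the block, 270 with DESeq2 and 2 without the replicate 1 libraries. For Detroit 562 minus SCC-9, 143 became 4170, 649 and 3. For FaDu minus SCC-9, 0 became 204 with the block and 5 with DESeq2. Without the replicate 1 libraries 1485 genes were called in Detroit 562 in place of 2766, and 556 for the mean of the lines in place of 1067. Single libraries left out gave 1586 to 3629 in Detroit 562, 0 to 74 in FaDu, 4 to 450 for Detroit 562 minus FaDu and 14 to 1240 for Detroit 562 minus SCC-9. The block changed no other call of a member than those given.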
